A study of Mus musculus with 6 samples.

Results

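The chromosome 6 block holds the array probes between 66.5 and 79.0 Mb of mouse chromosome 6 (build mm9), a stretch that contains Tcf7l1 and Dnah6. Of the 150305 probes on the array, 148 belonged to it: 84 by their own position, 51 custom probes because they shared a transcript with one of those, and 13 circular RNA (circRNA) probes by the position in their names. The stretch, and the genes Tcf7l1, Dnah6, Chmp3, Thnsl2, Elmod3, Eif2ak3 and Retsat named for it, were chosen by their differences between knockout and wild type on these same arrays. Every difference below is therefore a description of these samples, and nothing is supported by it. Counts of probes called by limma are given in the same sense, and nothing is supported by them. Of the 148 probes, 131 were for RefSeq mRNAs of 56 genes, 4 for RefSeq non-coding RNAs and 13 for circRNAs.

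RNA of the prefrontal cortex was compared between 3 wild type and 3 Nrf2 knockout samples, all from male mice of the ICR strain aged 3 to 4 months, on 1 one-colour array each. Which part of the gene was deleted, and by what allele or line, is not in the labels. Nor do they say that the samples are from different animals, so the spread between samples may be technical. In bulk tissue, fewer cells of a type and less RNA per cell cannot be told apart. Arrays were grouped by the scan date in their headers, and each group is called a slide here and below. No slide number was read, so slide stands for scan date. Wild type arrays 1, 2 and 3 and knockout array 1 shared slide 1, and knockout arrays 2 and 3 were on slide 2.

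Nrf2, made from the gene Nfe2l2, is a transcription factor that binds antioxidant response elements in front of detoxification and antioxidant genes. Tcf7l1 (also called TCF3) is a member of the TCF/LEF family, which binds DNA at Wnt target genes and mostly holds them repressed until beta-catenin arrives. Dnah6 is a heavy chain of the inner dynein arms that bend motile cilia, and in brain such cilia are carried mainly by ependymal cells. Chmp3 is a subunit of ESCRT-III, the filament that cuts membrane necks. Eif2ak3 encodes PERK, the kinase that slows translation under stress in the endoplasmic reticulum. Retsat saturates a double bond of retinol, Elmod3 acts on small ARF and ARL GTPases, and Thnsl2 resembles bacterial threonine synthase.

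Levels below are on the log2 scale, with the array's own 75th percentile subtracted, so that a value of 0 is the 75th percentile. Levels of different probes are not comparable, since each probe has its own response. A probe was tested if the scanner software called it well above background on all 3 arrays of a group, which left 115 of the 148. Groups are said not to overlap when the 3 knockout values all lay above or all below the 3 wild type values.

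The sequences of the Tcf7l1 and Dnah6 probes are shown first because the probes of Tcf7l1 did not behave alike. All are given as deposited, and the 3 probes of each gene share no run of bases with one another. The Tcf7l1 probes and the custom Dnah6 probe are cut to their first 30 bases. Tcf7l1 probe A lies at chr6:72576377-72576436 and probe B at chr6:72577222-72577281, both on the minus strand of mm9, and probe C is a custom probe for the same transcript without a position of its own. Dnah6 probe A lies at chr6:72972374-72972433 and probe B spans an intron between 73085756 and 73088609, both on the minus strand, and probe C is a custom probe.
Tcf7l1 probe A: tggtttttggaacaatttaaactcccagtt
Tcf7l1 probe B: cacaaaggaagcattattggtcaatatttg
Tcf7l1 probe C: tggtaacagcagtgccttaccactgtagat
Dnah6 probe A: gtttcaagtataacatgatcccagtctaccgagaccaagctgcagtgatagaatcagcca
Dnah6 probe B: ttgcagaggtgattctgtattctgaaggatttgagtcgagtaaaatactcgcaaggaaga
Dnah6 probe C: gtggctgttatttctcccatgacctaaaat

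The promoters of both genes, and the short stretch between Elmod3 and Retsat, which start back to back, are printed because neighbouring genes differed there in the same or in opposite directions. They are RefSeq sequences of GRCm38.p6, so these coordinates are not those of the mm9 probes. A script searched 32851 promoters of 250 upstream bases on both strands for the antioxidant response element core TGACNNNGC, the TCF/LEF core CTTTGAT and the X-box core GTTGCCNNG. Capitals mark a match. The Tcf7l1 promoter is chr6:72789046-72789295 on the minus strand, the Dnah6 promoter chr6:73221632-73221881 on the minus strand, and the stretch between the starts of Elmod3 and Retsat is chr6:72598414-72598601, shown on the plus strand.
Tcf7l1 promoter: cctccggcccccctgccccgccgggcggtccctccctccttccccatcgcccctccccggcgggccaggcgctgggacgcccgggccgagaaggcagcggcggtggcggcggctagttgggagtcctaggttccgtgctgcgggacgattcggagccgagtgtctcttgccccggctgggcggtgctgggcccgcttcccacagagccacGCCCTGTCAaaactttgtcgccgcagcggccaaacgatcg
Dnah6 promoter: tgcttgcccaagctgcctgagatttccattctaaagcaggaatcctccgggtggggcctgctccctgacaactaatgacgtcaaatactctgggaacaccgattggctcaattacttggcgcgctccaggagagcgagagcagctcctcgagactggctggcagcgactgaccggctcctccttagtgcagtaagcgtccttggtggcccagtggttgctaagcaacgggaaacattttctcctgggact
Between Elmod3 and Retsat: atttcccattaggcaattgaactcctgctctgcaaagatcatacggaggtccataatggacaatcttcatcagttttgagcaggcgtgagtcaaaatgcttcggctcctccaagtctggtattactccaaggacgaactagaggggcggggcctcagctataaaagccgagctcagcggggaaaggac

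The antioxidant response element core occurred once in the Tcf7l1 promoter, and no searched core occurred in the other 2 stretches. Among 63 promoters of 55 block genes, 5 held that core, those of Fabp1, Il12rb2, Il23r, Tcf7l1 and Tmem150a, against 10.2% of all promoters. The TCF/LEF core was found in Reg2, Reg3a and Reg3g, against 3.21% of all promoters, and the X-box core in Gng12, against 4.09%. A match is a run of letters and not a binding site.

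Tcf7l1 had the largest differences of the block, in 2 of its 3 probes. With probe C it was at -5.05, -4.56 and -5.00 in wild type, against -1.05, 0.40 and -0.70 in the knockout, a difference of 4.42 (SE 0.37, n = 3 against 3) or 21.4-fold. With probe B it was at -5.56, -4.41 and -5.09 in wild type, against -1.21, 0.01 and -0.98 in the knockout, a difference of 4.29 (SE 0.40). Each knockout value of both probes lay far above each wild type value, knockout 2 was the highest, and only 2 of 3 wild type arrays were well above background. Tcf7l1 probe A did not show this. It read -1.53, -1.34 and -1.81 in wild type, against -1.55, -1.57 and -1.77 in the knockout, with overlapping groups and a difference of -0.07 (SE 0.14). Probes A and B lie within 1 kb of each other on the genome, and the arrays do not show which transcript ends or isoforms each one meets. With slide as a block, which rests on knockout 1 against the wild type arrays, the difference was 3.82 for probe C and 3.81 for probe B. Normexp background correction was run with an offset of 50 added to every signal, which compresses signals near background. With it the difference was 2.01 for probe C and 1.84 for probe B, so the size of the fold rests on the background treatment.

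Dnah6 was higher in every knockout sample with all 3 probes. Probe C read -2.11, -1.71 and -1.83 in wild type, against 0.27, 0.89 and 0.24 in the knockout, a difference of 2.35 (SE 0.21) or 5.09-fold, and 2.15 with slide as a block. Probe A read -6.91, -5.87 and -4.60 in wild type, where 1 of 3 arrays was well above background, and -2.96, -2.25 and -2.94 in the knockout, a difference of 3.08 (SE 0.56). With normexp background correction the differences were 0.75 for probe A and 1.71 for probe C. The groups did not overlap with either probe on the main scale, and the wild type arrays of probe A spread over more than 2 log2 units. The intron-spanning probe B was not tested, because it was well above background on none of the wild type and 2 of the knockout arrays. It read -7.26, -7.35 and -7.45 in wild type, against -4.64, -4.44 and -5.89 in the knockout, again without overlap.

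Of 6 markers of ependymal cells, 0 were higher and 2 lower without overlap, with a median difference of -0.10. Over all 18128 genes with a tested probe, 6.55% were higher and 12.8% lower. The summed level of the 6 ependymal markers on the linear scale, relative to the 75th percentile, was 2.77 to 3.40 in wild type, against 2.85 to 3.32 in the knockout. Foxj1, the master regulator of motile cilia, was the highest in wild type 1 and differed by 0.20 (SE 0.26) with overlapping groups. Of 10 tested chains of other axonemal dyneins, 9 of them heavy chains, 1 was higher and 1 lower without overlap, and their median difference was -0.0013. All 6 ependymal markers were well above background on every array.

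**Figure D1:**
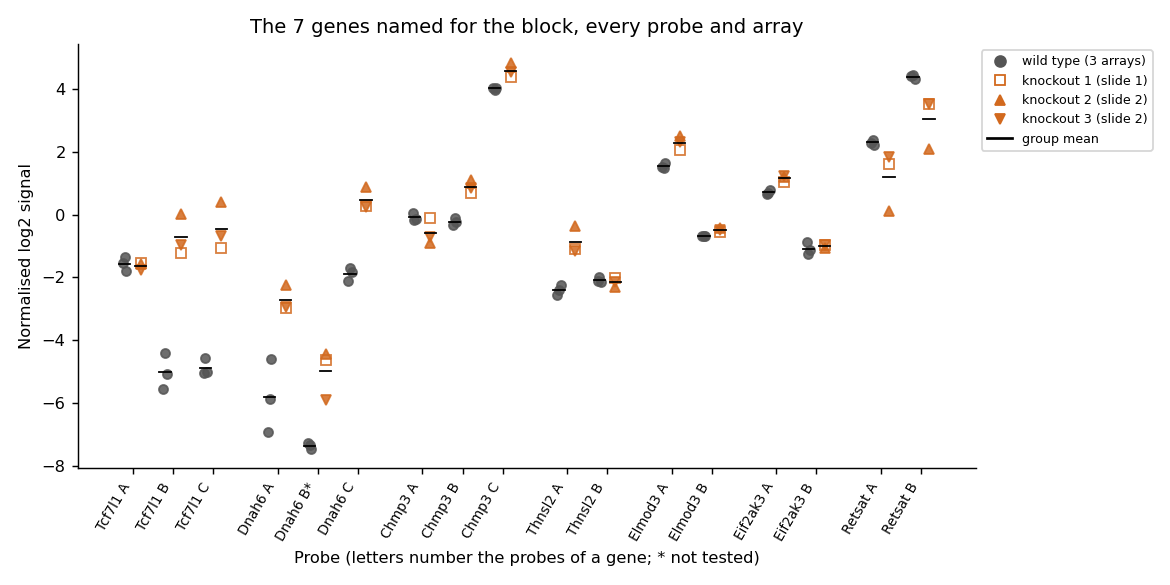
Normalised log2 signal of every probe of the 7 genes named for the block, with 1 point per array, wild type as circles and the knockout as squares (slide 1) or triangles (slide 2), and bars for group means. Tcf7l1 B and C and all Dnah6 probes show knockout values above all wild type values, Tcf7l1 A shows none of it, and both Retsat probes show the lowest value in knockout 2.

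Chmp3 differed in direction between its probes. Probe B, at chr6:71530663-71530722, read -0.35, -0.11 and -0.23 in wild type, against 0.69, 1.11 and 0.85 in the knockout, a difference of 1.11 (SE 0.14) without overlap, and 0.92 with slide as a block. The custom probe C was higher by 0.56 (SE 0.13), again without overlap. The third, probe A, crosses an intron. It read 0.05, -0.16 and -0.13 in wild type, against -0.13, -0.90 and -0.72 in the knockout, so that knockouts 2 and 3 were below wild type while knockout 1 was within it. The Chmp3 circRNA differed by -0.03 (SE 0.08). Outside the block, 12 genes of other ESCRT-III subunits and their partners had a median difference of 0.03, with 1 higher and 2 lower without overlap. The shares over all 18128 genes with a tested probe were 6.55% higher and 12.8% lower.

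Thnsl2 also depended on the probe. The probe at chr6:71078597-71078656 read -2.56, -2.40 and -2.24 in wild type, against -1.08, -0.35 and -1.16 in the knockout, a difference of 1.53 (SE 0.23), 1.32 with slide as a block and 0.93 after normexp correction. The custom probe of the same transcript differed by -0.06 (SE 0.11), with overlapping groups. Tcf7l1, Chmp3 and Thnsl2 were the 3 genes of the block whose tested probes differed by more than 1 log2 unit from each other.

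Elmod3 was higher and its neighbour Retsat lower, although their annotated starts are separated only by the 188 bases printed above. Elmod3 at chr6:72516028-72516087 read 1.51, 1.48 and 1.63 in wild type, against 2.06, 2.50 and 2.31 in the knockout, a difference of 0.75 (SE 0.13). The custom Elmod3 probe differed by 0.19 (SE 0.08), without overlap, with an SD of 0.0017 among the wild type values. Retsat at chr6:72556656-72556715 read 2.29, 2.39 and 2.21 in wild type, against 1.61, 0.10 and 1.84 in the knockout, a difference of -1.11 (SE 0.44). The custom Retsat probe read 4.40, 4.43 and 4.31 against 3.53, 2.10 and 3.52, a difference of -1.33 (SE 0.38). Knockout 2 was the lowest with both Retsat probes, and knockouts 1 and 3 were close to one another. With slide as a block the differences were 0.52 and 0.12 for Elmod3 and -0.69 and -0.85 for Retsat.

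Eif2ak3 was higher with 1 of 2 probes. That probe read 0.65, 0.70 and 0.79 in wild type, against 1.04, 1.20 and 1.22 in the knockout, a difference of 0.44 (SE 0.09), or 0.32 with slide as a block. The other differed by 0.08 (SE 0.12) and the Eif2ak3 circRNA by 0.13 (SE 0.10), both with overlap. Of 12 genes downstream of or beside PERK in the stress response, such as Atf4 and Ddit3, 0 were higher and 1 was lower without overlap, and their median difference was 0.0035. Of 22 tested genes of the TCF and Wnt pathway outside the block, 2 were higher and 3 lower without overlap, with a median of 0.05. None of the 4 lists outside the block had a gene past the adjusted threshold of limma (0 of 22, 10, 12 and 12), and at an unadjusted p under 0.05 there were 3, 2, 1 and 0 genes. Over all 18128 genes with a tested probe, 1 probe per gene, 3 were past the adjusted threshold and 2276 had an unadjusted p under 0.05. Of the same genes, 1187 were higher and 2320 lower without overlap.

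Over the whole block, 49 of 115 tested probes had groups without overlap, 35 higher and 14 lower in the knockout. Over all 105922 tested probes of the array the share was 21.5%, with 11.1% higher and 10.4% lower, against 42.6% in the block, with 30.4% higher and 12.2% lower. By limma's test adjusted over the whole array at 0.05, 0 block probes were called, beside 0.00944% of all tested probes. At an unadjusted p under 0.05 of the same test there were 43, 37.4% of the block's tested probes, beside 15.1% of all tested probes. Without knockout 1 the count by the adjusted test was 26, beside 12.8% of all tested probes, and slide and genotype cannot be told apart in that comparison. It was 1 without knockout 2 and 1 without knockout 3. The block was chosen on this contrast, so nothing is read from these shares. The median difference of the block was 0.08, against 0.03 over all tested probes. A difference of 2-fold or more was seen in 8 higher and 4 lower probes, 10.4% of the block and 2.52% of the array. Without Tcf7l1 and Dnah6, 45 of 110 probes had no overlap (40.9%).

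The windows of equal width on either side showed smaller shares. At 54 to 66.5 Mb, 13 of 128 tested probes had no overlap (10.2%), and at 79 to 91.5 Mb, 60 of 344 (17.4%). On the rest of chromosome 6, both windows included, it was 451 of 2416 (18.7%). The bounds were set where the differences lay, so the contrast with the neighbours follows in part from the choice of window. Of the mRNA probes alone, 43 of 100 in the block had no overlap, against 7447 of 39126 on the array.

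**Figure D2:**
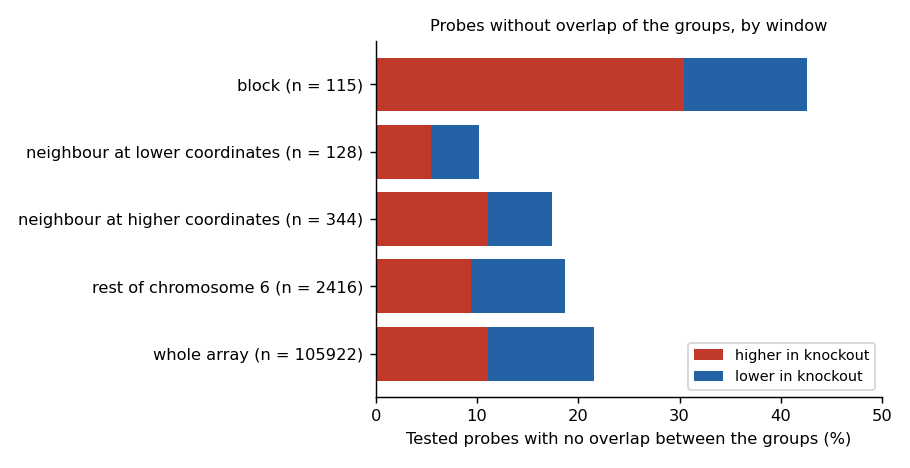
Share of tested probes, in percent, whose 3 knockout values lay all above (red) or all below (blue) the 3 wild type values, for the block, its 2 neighbouring windows, the rest of chromosome 6 and the whole array. The block stands at 42.6%, of which 30.4% were higher, against 21.5% for the whole array.

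Along the block, the probes were unevenly placed and the differences gathered near Tcf7l1. In the 1 Mb from 72 to 73 Mb, 44 probes of 21 genes were tested, and 20 were higher and 4 lower without overlap, with a median of 0.17. From 71 to 72 Mb, 37 probes of 13 genes were tested, and 5 were higher and 6 lower, with a median of 0.0079. All other 1 Mb bins of the block held fewer than 20 tested probes each, and no RefSeq probe of the block lay between 68 and 70 Mb or between 74 and 76 Mb. Genes on both sides of Tcf7l1 were not uniform: Kcmf1, a ubiquitin ligase between Tcf7l1 and Dnah6, had 3 probes with overlapping groups and differences of 0.00, -0.08 and 0.06. Tmsb10, an actin-sequestering peptide that also lies between them, had differences of -0.21 and -0.01, both with overlap.

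**Figure D3:**
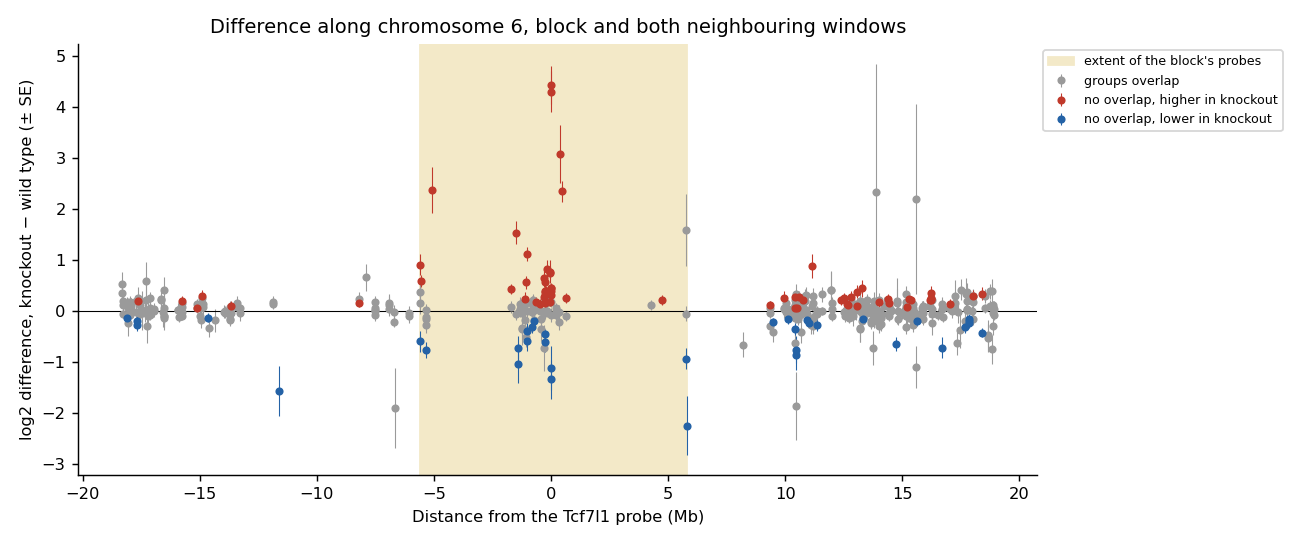
Log2 difference, knockout minus wild type, with its SE, of each tested RefSeq probe against its distance in Mb from Tcf7l1 probe B, for the block (shaded) and both neighbouring windows, in grey where the groups overlapped. Custom probes stand at the place of their transcript and circRNAs are not drawn. The points at 4.42 and 4.29 are Tcf7l1, and higher probes crowd within 1 Mb of it.

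At the lower edge, the 3 positioned probes just inside were the vomeronasal receptors Vmn1r32, Vmn1r33 and Vmn1r35, none of them well above background on any array. Just outside lay Mad2l1 and 4930544G11Rik, with differences of -0.10 and -1.89, both with overlapping groups. At the upper edge, Reg3g and Reg2 inside were not well above background, Reg1 differed by -2.24, and Lrrtm4, Gcfc2 and Mrpl19 outside by -0.66, 0.06 and -0.04 with overlap. All 10 probes of the 5 Vmn1r genes went untested for lack of signal. In all, 12 of the 60 genes had no tested probe, among them Il23r, Fabp1 and Tex37.

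Of the 48 genes with a tested probe, 37 had more than 1. All tested probes were higher without overlap in 4 of these 37 genes and lower in 2, some but not all stood apart in 20, and none did in 11. No gene had probes apart in both directions (0). The same counts were not made for the genes of the whole array, where 21.5% of all tested probes had no overlap, so nothing is read from them. The 4 with all probes higher were Dnah6, Elmod3, Usp39 and Tgoln2, and the 2 with all probes lower were Retsat and Smyd1. The 2 Smyd1 probes share 39 bases, so they are not separate readings.

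Genes of membrane traffic went both ways. Of 13 tested probes of Chmp3, Vamp5, Vamp8, Tgoln1 and Reep1, 5 were higher and 2 lower without overlap, with a median difference of 0.19. Over all tested probes of the array, 11.1% were higher and 10.4% lower. Vamp8, a SNARE of late endosomes, was higher with 2 of 3 probes without overlap, by 0.38 (SE 0.12) and 0.37 (SE 0.11), and by 0.30 with overlap. Vamp5, a SNARE first described in muscle, differed by -0.45 and -0.60 without overlap with 2 probes and by -0.01 with the third. Its brightest probe read 4.69, 4.62 and 4.57 in wild type, against 4.49, 3.87 and 3.70 in the knockout, so that knockout 1 stayed near wild type. Tgoln2, a trans-Golgi network protein, was higher by 0.45, 0.45 and 0.32 with its 3 probes. The last of these read 0.20, 0.14 and 0.17 in wild type, against 0.50, 0.54 and 0.43 in the knockout. Its near copy Tgoln1 was higher by 0.39 without overlap and by 0.19 with overlap, and probes of such similar genes can share signal.

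Of the 13 tested probes of Eif2ak3, Polr1a, Mrpl35, Ptcd3 and Usp39, 4 were higher and 2 lower without overlap, with a median of 0.08. For this list and the 2 below, the shares over all tested probes were 11.1% higher and 10.4% lower. Usp39, a splicing factor of the tri-snRNP, was higher by 0.65 (SE 0.18) and 0.28 (SE 0.12), and its circRNA at chr6:72329450-72342968 (minus strand) by 0.35 (SE 0.10), all 3 without overlap. That circRNA read -1.11, -1.34 and -1.22 in wild type, against -0.94, -0.87 and -0.80 in the knockout. Among the mitochondrial genes Immt, Suclg1, Mrpl35 and Ptcd3, 1 of 12 probes was higher and 2 were lower, with a median of -0.0088. For the ubiquitin ligases Rmnd5a, Rnf103, Rnf181 and Kcmf1, 1 of 13 was higher and 0 lower, with a median of 0.06.

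Kdm3a, Atoh8 and Smyd1 formed the list of chromatin and transcription genes, which left out Tcf7l1 and Polr1a. Of their 7 probes, 0 were higher and 4 lower without overlap, with a median of -0.39, beside 11.1% higher and 10.4% lower over all tested probes. Kdm3a, a demethylase of histone H3, differed by -0.58 and -0.39 without overlap with 2 probes and by 0.00 with the third. Smyd1, a methyltransferase known from heart and skeletal muscle, read 1.29, 1.22 and 1.39 in wild type, against 1.16, -0.17 and -0.20 in the knockout with its first probe, a difference of -1.03 (SE 0.36). Its lower level was in the 2 samples of slide 2, and with slide as a block the difference was -0.14.

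Among metabolic enzymes (Thnsl2, Retsat, Mat2a, Ggcx, St3gal5 and Fabp1), 3 of 10 tested probes were higher and 2 lower without overlap, with a median of 0.0035. Over all tested probes of the array, 11.1% were higher and 10.4% lower. Ggcx, the vitamin K-dependent carboxylase, was higher by 0.40 (SE 0.09) with 1 probe, from -0.87, -0.76 and -0.79 to -0.48, -0.31 and -0.43, and by 0.16 with overlap with the other. Mat2a, which makes S-adenosylmethionine, differed by -0.01 and 0.00 with 2 probes that share 57 bases. The non-coding RNA Particl, transcribed from the Mat2a promoter region, read 2.28, 1.79 and 1.98 in wild type, against 2.58, 3.12 and 2.80 in the knockout, a difference of 0.82 (SE 0.18) without overlap. The groups were thus apart at Particl and overlapped at its neighbour Mat2a.

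Capg, which caps actin filaments, was higher by 0.77 (SE 0.23), from -2.38, -2.45 and -3.20 to -2.04, -1.79 and -1.89, without overlap. Gadd45a, a stress-induced growth arrest gene, was higher by 0.91 (SE 0.21) without overlap and by 0.38 (SE 0.18) with overlap. The first of these probes read -1.53, -1.97 and -1.30 in wild type, against -0.63, -0.46 and -0.99 in the knockout. Its neighbour E230016M11Rik, a non-coding RNA, was higher by 0.59 (SE 0.11), and 0610030E20Rik by 0.57, 0.31 and 0.00, the last with overlap. Gng12, a G protein gamma subunit, differed by -0.59 without overlap with 1 probe and by 0.16 with overlap with the other.

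Il12rb2, a chain of the interleukin 12 receptor, was lower with both probes, with differences of -0.76 (SE 0.16) without overlap and -0.28 (SE 0.16) with overlap. Cd8a, the T cell coreceptor, differed by -0.35 and -0.32 with its 2 tested probes, both with overlap. With slide as a block the differences were 0.11 and 0.06 for Cd8a, and -0.70 and -0.30 for Il12rb2. Of the T cell markers Cd3e, Cd3d, Cd4 and Cd2, the first 2 were lower without overlap and the others overlapped. Trac, also listed, had no tested RefSeq probe. Over all 18128 genes with a tested probe, 6.55% were higher and 12.8% lower without overlap. The summed level of the 4 T cell markers was 7.40 to 7.47 in wild type, against 3.98 to 6.70 in the knockout. Cd3d read 2.04, 2.01 and 2.00 in wild type, against 1.83, 0.87 and 0.89 in the knockout, so that knockout 1 stayed near wild type. The part of these markers in the values of Il12rb2 and Cd8a was not tested.

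**Figure D4:**
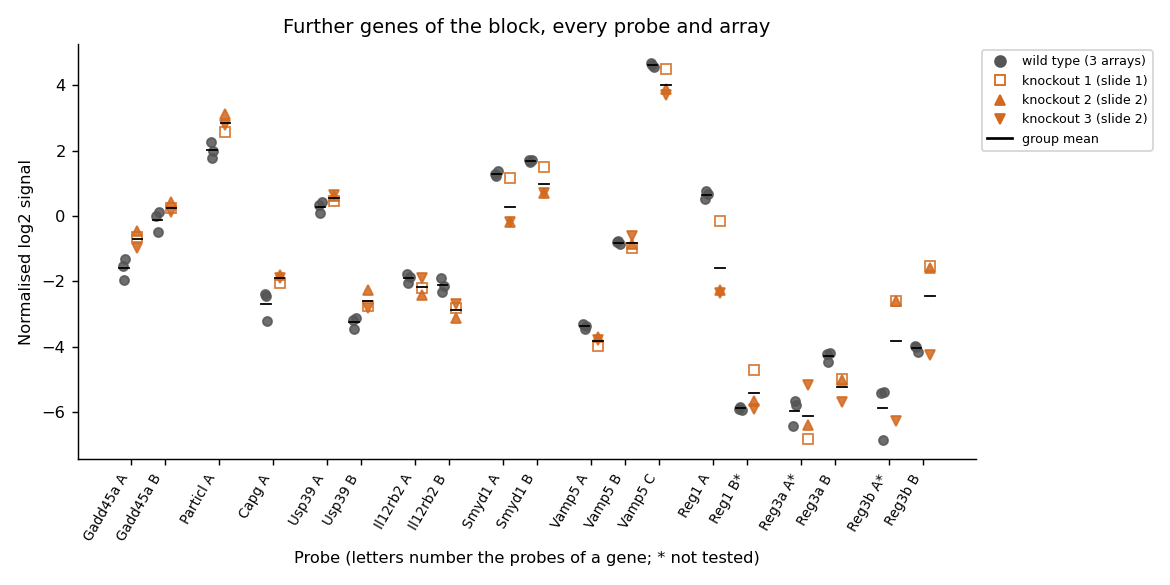
Normalised log2 signal of every probe of 10 further genes of the block, with 1 point per array, wild type as circles and the knockout as squares (slide 1) or triangles (slide 2), bars for group means and stars for untested probes. Reg1 and Smyd1 show knockout 1 apart from knockouts 2 and 3, and both Reg3b probes show knockout 3 with the wild type.

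The Reg family, small secreted lectins known from pancreas and gut, lay at the upper end of the block and differed among the knockout samples. Reg1 read 0.51, 0.75 and 0.68 in wild type, against -0.15, -2.27 and -2.37 in the knockout, a difference of -2.24 (SE 0.58), -0.80 with slide as a block and -1.62 after normexp correction. Its other probe was not tested, being well above background on 0 wild type arrays and 1 knockout array. It read -5.90, -5.84 and -5.93 in wild type, against -4.71, -5.65 and -5.90 in the knockout, with overlap and not lower on average. Reg3b read -3.97, -4.01 and -4.15 in wild type, against -1.53, -1.58 and -4.26 in the knockout, so that knockouts 1 and 2 lay above wild type and knockout 3 below it. The untested Reg3b probe read -2.59 in both knockouts 1 and 2 and -6.28 in knockout 3, against -5.41, -6.86 and -5.38 in wild type. Reg3a was well above background in wild type and on none of the knockout arrays, at least 1.64-fold lower on the main scale. The Reg3a difference was -0.68 with slide as a block and -0.05 after normexp correction, so its size rests on the background treatment. Over the 4 tested Reg probes, 0 were higher and 2 lower without overlap, beside 11.1% higher and 10.4% lower over all tested probes. The pancreas genes Prss1, Cela1 and Cpa1 had a summed level of 1.89 to 4.16 in wild type, against 0.623 to 2.31 in the knockout, all 3 with overlapping groups, and their part in the Reg values was not tested.

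Of 12 tested circRNAs, 3 were higher and 0 lower without overlap, 25.0%, against 23.3% of the circRNAs on the array. CircRNA names were read as GRCm38 positions. Besides the one in Usp39, a circRNA in Immt at chr6:71856912-71863270 (plus strand) was higher by 0.77 (SE 0.25), from -2.21, -2.35 and -2.07 to -0.92, -1.44 and -1.96. A second Immt circRNA with the same start and a later end, 71868803, differed by -0.49 (SE 0.28) with overlap, and the 3 linear Immt probes by 0.20, 0.00 and 0.21, all with overlap. The third circRNA without overlap, at chr6:67063395-67074026 (plus strand), lay in no single coding gene and was higher by 0.57 (SE 0.12).

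The knockout samples did not contribute equally. Of the 49 probes without overlap, knockout 2 lay farthest from the wild type mean in 33 (67.3%) and knockout 1 in 4, and over the whole array these shares were 33.5% and 11.8%. Knockout 1, the one that shared its scan date with the wild type arrays, had at least 0.5 of the slide 2 difference in 28 of the 35 higher probes. It did so in 6 of the 14 lower ones. The median size of the difference was 0.33 in knockout 1 and 0.50 on slide 2 for the higher probes, and 0.25 against 0.82 for the lower. The lower probes thus rested more on slide 2. Tcf7l1 probes B and C, Dnah6 probes A and C, Chmp3 probe B and the positioned Thnsl2 probe had differences of 0.92 to 3.82 within slide 1 alone.

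**Figure D5:**
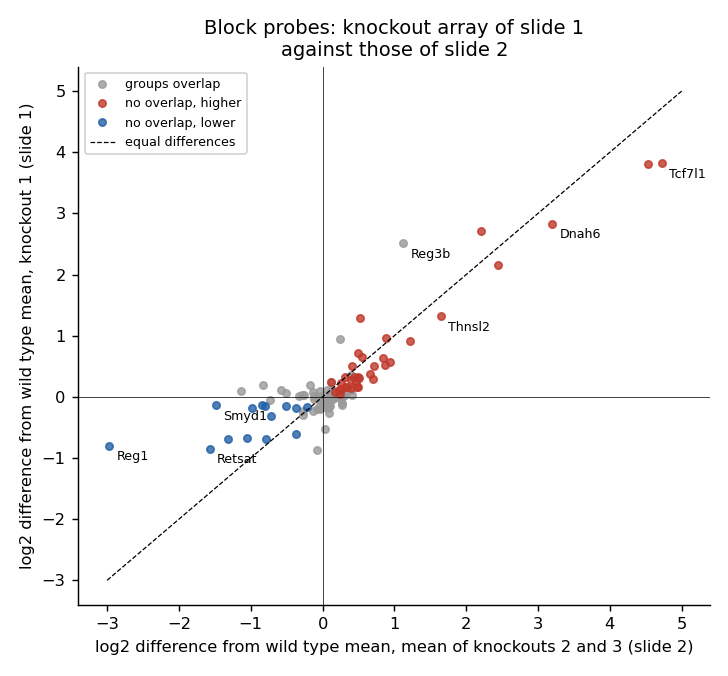
Difference from the wild type mean on the log2 scale of each of the 115 tested block probes, knockout 1 on slide 1 (vertical) against the mean of knockouts 2 and 3 on slide 2 (horizontal), coloured by overlap of the groups. Tcf7l1, Dnah6 and Thnsl2 lie near the dashed line of equal differences, while Reg1 and Smyd1 lie far from it, with -0.80 and -0.14 in knockout 1.

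Over the 6 arrays, the members closest in pattern to Tcf7l1 probe C, by Pearson's r and as a description, were Chmp3 probe B (0.997), Dnah6 probe C (0.997), Tcf7l1 probe B (0.996), Ggcx (0.990) and Thnsl2 (0.981). The separation of the groups, by which the members were chosen, sets most of each r. Knockout 2 was the highest sample at all 6 of these probes. Among the knockout samples, knockout 1 was the lowest at both Tcf7l1 probes, Chmp3 and Ggcx, and knockout 3 at Dnah6 and Thnsl2.

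The targeted gene checked the labels: of 3 Nfe2l2 probes, 2 were not well above background on any knockout array and were at least 65.6-fold and 81.5-fold lower there, and the third differed by -4.08 (SE 0.12). Arrays had a 75th percentile of 245 to 280.3 in processed signal, and 71.0 to 73.4% of the probes were well above background per array. Of the markers of cortical neurons, 1 of 6 was higher and 1 lower without overlap, with a median of 0.03. The 6 choroid plexus markers had 0 higher and 2 lower, with a median of -0.51, and of 5 B and plasma cell markers 0 were without overlap. The shares over all 18128 genes with a tested probe were 6.55% higher and 12.8% lower.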

How the data were processed

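Intensity values were read from the scanner output that the authors deposited. The file headers name version 12.0.3.1 of Agilent Feature Extraction, the submitters' processing notes version 10.7 and limma. Background subtraction and detrending had been applied, per the file headers. Outlier-flagged spots counted as missing (0 in the block). The authors' deposited log2 value table was an alternative only. The other column used was the scanner software's background call in the deposited files.

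Log2 signals minus the array's 75th percentile were fitted with limma 3.58.1 in R 4.3.3 (lmFit, eBayes) over 105922 tested probes, with Benjamini-Hochberg adjustment at 0.05; the script was tested on simulated data. Errors are limma's SE. Probe positions are mm9 per the file headers; circRNA names were read as GRCm38, a build that no label or header states. RefSeq names matched 132 of 135 block probes. The members, gene lists and rules were chosen with earlier results of these data known. Named genes were the 7 of the block's definition, the 16 further genes and 6 circRNAs (3 existed) of largest difference without overlap, the 3 probes on each side of each edge, and list members. Other genes and members were named after their values were seen. Some items these rules select are not reported here. Replicate numbers did not pair the samples. Alternatives were slide or replicate number as a block, slide 1 alone, background correction, normalization, scaling, the background filter and leaving out each sample. Precision is limited by having 3 arrays per group.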

Additional observations from a re-analysis of the deposited data

How the results depend on the processing

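The count of 0 block probes called was unchanged with slide as a block, within slide 1, after quantile normalization, with the authors' table and with both other filters. It was 1 with the replicate block (Tcf7l1 probe B), 1 after normexp background correction (Dnah6 probe C) and 1 with scaling to the median (Tcf7l1 probe C). Leaving out 1 sample gave 0 to 26: 26 without knockout 1, where slide and genotype cannot be told apart, 1 without knockout 2 (Tcf7l1 probe C) and 1 without knockout 3 (Reg3b). Except for the run without knockout 1, the share of all tested probes called in each alternative is not given beside these counts. The block and its named genes were chosen on this contrast, so nothing is read from any of these calls. The replicate numbers did not pair the samples: same-numbered deviations correlated at -0.01, -0.05 and 0.04.

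Probes without overlap numbered 49, and 44 to 54 under the filters and normalizations. The latter were 35.1 to 47.0% of the block's tested probes, against 17.6 to 23.6% of all tested probes. Within slide 1 there were 77, since 1 knockout value is then enough (67.0% of the block, 51.0% of the array). Leaving out 1 sample gave 50 to 73, 43.5 to 63.5% of the block against 25.7 to 51.7% of the array. The 73 came without knockout 1, 63.5% of the block against 51.7% of the array. Both blocks leave the values as they are, so overlap was not recounted for them. After normexp correction 76.9% of the block's probes without overlap were higher, against 71.4%, and over the whole array 62.5% against 51.7%. Within slide 1 the block's share was 54.5%, with 42 higher and 35 lower, and leaving out 1 sample it was 64.4 to 73.2%. The median difference stayed between 0.02 (slide as a block) and 0.13 (scaled to the median), within 1 SD of the knockout arrays' medians (0.07). A further count took only 49 probes, those of the block's defining genes and of the further genes and circRNAs chosen by largest difference. For these, 672 of 730 values under 15 alternatives stayed within 1 SD of the main value. Of them, 0 of the 40 probes with a difference of at least 0.2 changed sign. Other probes reported above were not in this count, and some changed sign with slide as a block. Cd8a went from -0.35 and -0.32 to 0.11 and 0.06. The second Immt circRNA went from -0.49 to 0.20, and a Tmsb10 probe from -0.21 to 0.02. Faint probes such as Dnah6 A limit the precision at low signal.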
